A study of Mus musculus with 4 samples.

Results

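Phox2a, Gata2, Gata3, Hand2, Th, Ddc, Dbh and Pnmt were followed in Neuro-2a (N2a), a mouse neuroblastoma line. They are transcription factors of sympathetic cells and the enzymes that make catecholamines, and were taken by their gene symbol, 8 of the 22667 genes in the deposited expression table. All cells received a siRNA for 48 h and a treatment for 4 h. siControl cells carried a non-targeting siRNA and siArglu1 cells a siRNA against Arglu1, which encodes ARGLU1, a coactivator of the glucocorticoid receptor (GR) and a modulator of splicing. The treatment was dexamethasone (Dex), a synthetic glucocorticoid, at 100 nM, or its ethanol vehicle (Veh). The mRNA of 3 cultures was pooled for each of the 4 groups, named siControl or siArglu1 with Veh or Dex, which leaves 1 polyA library per group. The spread between cultures was therefore not measured, no pair of libraries was tested, and the 95% intervals below cover counting error only.

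The noradrenergic identity of sympathetic neurons and adrenal chromaffin cells is set by a network of transcription factors to which PHOX2A, HAND2, GATA2 and GATA3 belong. Catecholamines are then made in sequence. Tyrosine hydroxylase (TH) turns tyrosine into DOPA, DOPA decarboxylase (DDC) makes dopamine, dopamine beta-hydroxylase (DBH) makes noradrenaline inside vesicles, and phenylethanolamine N-methyltransferase (PNMT) makes adrenaline. Pnmt is a classical glucocorticoid target of the adrenal medulla, and the study itself picked it as a target gene in these cells, so its response to Dex is given as a description.

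The promoters of Dbh and Th are shown because these enzymes of the same pathway moved in opposite directions after Arglu1 knockdown. RefSeq promoters (build GRCm38.p6) were found for 7 of the 8 genes, with 9 start sites in all, and Pnmt was not among them. The window holds the 250 bases before the start, 5′ to 3′ on the strand of the gene. For Dbh this is chr2:27165257-27165506 (plus strand) and for Th chr7:142899996-142900245 (minus strand). Capitals mark ATTA or its reverse complement TAAT, the core that homeodomain factors such as PHOX2A bind, and TGACGTCA, the cAMP response element.
Dbh: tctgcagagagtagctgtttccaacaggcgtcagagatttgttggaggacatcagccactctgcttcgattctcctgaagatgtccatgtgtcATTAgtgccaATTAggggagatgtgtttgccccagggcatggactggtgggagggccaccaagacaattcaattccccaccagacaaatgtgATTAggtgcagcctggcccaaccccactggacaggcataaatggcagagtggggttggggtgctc
Th: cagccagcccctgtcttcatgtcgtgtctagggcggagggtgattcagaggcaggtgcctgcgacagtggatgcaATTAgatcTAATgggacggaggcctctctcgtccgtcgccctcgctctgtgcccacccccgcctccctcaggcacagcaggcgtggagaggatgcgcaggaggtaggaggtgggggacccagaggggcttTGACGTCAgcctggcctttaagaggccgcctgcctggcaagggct

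The Dbh window has 3 homeodomain cores, which begin 157, 147 and 65 bases before the start. The Th window has 2, at 175 and 167 bases, and a cAMP response element at 45 bases. Such a core was present in 54.9% and the cAMP response element in 1.55% of the 32851 RefSeq promoters searched on both strands, with no overlap between these motifs in either window. The GR half-site AGAACA, found in 16.1% of all promoters, was in none of the 9 windows. These matches are letters in a window and were not tested for binding. All 8 genes have a place in the GENCODE M21 annotation (build GRCm38), where Pnmt lies on chromosome 11 at 98386450 to 98388181 and Dbh on chromosome 2 at 27165233 to 27183200. GENCODE thus starts Dbh upstream of the RefSeq start used here. The same holds for Th, which GENCODE places on the minus strand of chromosome 7 at 142892752 to 142931128, so that the RefSeq window lies inside the annotated gene.

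Reads on genes came to between 66074574 and 86541444 per library. Arglu1 itself had 10165 reads with vehicle and 11825 with Dex in siControl cells, and 2637 and 3254 in siArglu1 cells. Its level in siArglu1 was 26.3% (25.2 to 27.5) of siControl in vehicle and 22.5% (21.7 to 23.4) in Dex, so the libraries follow their labels. The neuroblastoma label was checked with 9 markers of sympathetic neuroblasts, of which 8 reached 1 cRPKM, a level per kilobase of mappable sequence and per size of library. Their summed level was 1322 (Veh) and 1355 (Dex) cRPKM in siControl, and 1659 and 1677 in siArglu1, so the sum stood higher after knockdown. Its largest part was Tubb3, with 630 and 564 in siControl and 785 and 748 in siArglu1. Not every marker rose, since Chgb had 151 and 175 in siControl and 151 and 176 in siArglu1. Of 8 with enough reads, 1 had a log2 ratio of at least 0.81 in each pair, against 7.00% (Veh) and 6.19% (Dex) of all genes. The part of these markers in the results below was not tested. Markers of other cells were low, with summed levels of at most 2.61 cRPKM for 6 of adrenal cortex, 2.73 for 7 of midbrain dopaminergic neurons, 1 for 6 of glia, 1.10 for 7 of mesenchyme and 0.6 for 4 of leukocytes. Of these only Star of the adrenal cortex and Nr4a2 of dopaminergic neurons reached 1 cRPKM. Cyp11b1, Hsd3b1 and Mc2r of the adrenal cortex and En1, Foxa2 and Slc6a3 of dopaminergic neurons had 0 reads. In such pooled samples, fewer cells of a type and less RNA per cell cannot be told apart.

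Except for Gata3, the transcription factors were far more abundant than the enzymes. Where 4 values follow each other below, they start with the siControl pair, vehicle before Dex, and end with the siArglu1 pair. In siControl Veh the order by cRPKM was Hand2 (219), Gata2 (79.4), Phox2a (44.9), Ddc (5.71), Gata3 (3.59), Dbh (3.20), Th (2.58) and Pnmt (0.01). Every neighbour in it differed beyond the counting intervals except Gata3 and Dbh, and in the other 3 libraries every neighbour did. Hand2 ranked 348 among the 21553 genes with a cRPKM, and Pnmt ranked 14779. After knockdown Phox2a stood above Gata2, and Dbh passed both Ddc and Gata3, so that the order was, with either treatment, Hand2, Phox2a, Gata2, Dbh, Gata3, Ddc, Th and Pnmt. In siControl Dex, Th stood above Dbh and Gata3 below it. N2a cells thus held mRNA for the first 3 enzymes of the pathway in all 4 libraries, and mRNA for PNMT at more than 1 read in siControl Dex alone.

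**Figure D1:**
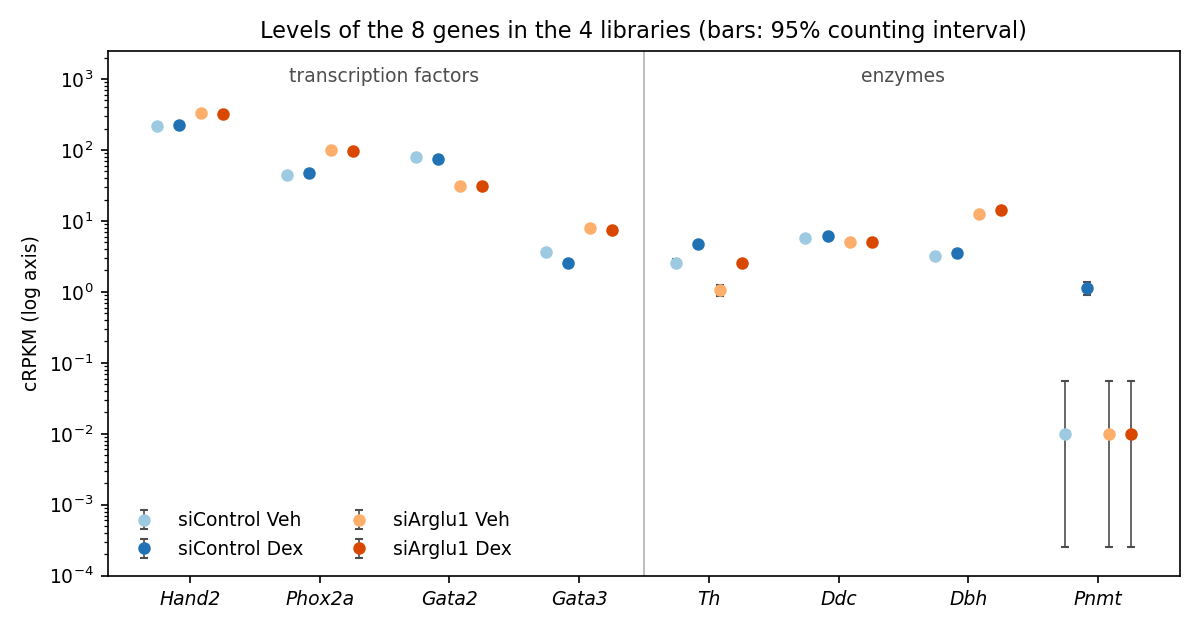
Level of each gene in each library in cRPKM (log axis), with 95% counting intervals as bars, mostly smaller than the points. The points of siArglu1 stand above those of siControl for Hand2, Phox2a, Gata3 and Dbh and below them for Gata2, and Pnmt leaves the bottom of the plot in siControl Dex alone, at 1.13 cRPKM.

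The first question was how Arglu1 knockdown changed the 8 genes. A gene was called where the log2 ratio of siArglu1 over siControl, from reads scaled by TMM, was at least 0.81 in size. In vehicle, 3 of the 8 were called higher (Dbh, Phox2a and Gata3) and 2 lower (Gata2 and Th). Over all 12497 genes with at least 75 reads, 7.00% were called higher and 8.77% lower, 15.8% in all. In Dex, the same 5 genes were called in the same direction against 6.19% higher and 5.93% lower of all genes (12.1% in all). Pnmt was past the size in Dex as well, at a lower level, but it entered through its reads in siControl Dex. The vehicle and Dex pairs share no library, and 9.89% of all genes were called in the same direction in both. With Pnmt included, the median log2 ratio of the 8 genes was 0.31 in vehicle and 0.10 in Dex, with medians near 0 over all genes. Pnmt had 1 read in both vehicle libraries, so these medians are not read as a result. All 8 genes passed the minimum of 75 reads, Pnmt only through siControl Dex, which holds 89 of its reads.

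**Figure D2:**
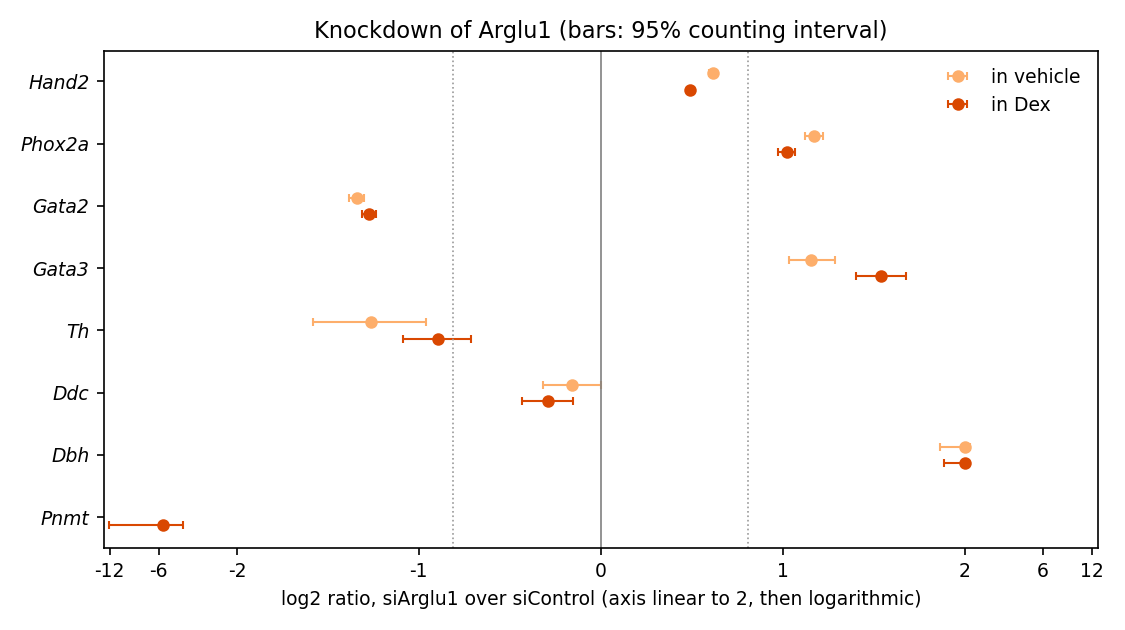
Log2 ratio of siArglu1 over siControl for each gene in vehicle (light) and in Dex (dark), with 95% counting intervals. The axis is linear up to 2 and logarithmic beyond, and dotted lines mark 0.81 in either direction. Dbh lies at 2.0 in vehicle and 2.01 in Dex, Gata2 at -1.34 and -1.28, and Pnmt is drawn in Dex only because it had 1 read in both vehicle libraries.

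Hand2 (ENSMUSG00000038193), a basic helix-loop-helix factor needed to form and keep noradrenergic neurons, was the most abundant of the 8. It stood at 219 cRPKM (31651 reads) in siControl with vehicle and 226 (35248) with Dex, and at 328 (47781) and 320 (60535) in siArglu1 with the same treatments. Both siArglu1 libraries lay above both siControl libraries. The share of all genes that separate in this way was not counted, so such a separation, here and for the genes below, is a description only. The log2 ratio of 0.62 (0.60 to 0.64) in vehicle and 0.49 (0.47 to 0.51) in Dex did not reach the size called.

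Phox2a (ENSMUSG00000007946), a paired-like homeodomain factor that activates Dbh and Th, had 44.9 cRPKM (4492 reads) in vehicle and 47.5 (5122) in Dex for siControl, against 98.8 (9970) and 96.9 (12705) for siArglu1. The siArglu1 libraries held about the same level with and without Dex, and both exceeded the siControl libraries. Phox2a rose 2.25-fold (2.18 to 2.34) in vehicle and 2.03-fold (1.97 to 2.10) in Dex. The neighbour Inppl1 shares 95 exonic bases with Phox2a on the opposite strand, and the TruSeq V2 kit does not mark strand. Inppl1 had 8361 and 8653 reads in siControl and 6892 and 10263 in siArglu1, each with vehicle first and Dex after it. Its part in the reads of Phox2a was not tested.

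The paired GATA factors moved apart. Gata2 (ENSMUSG00000015053), a zinc finger factor needed for chromaffin and sympathetic differentiation, had 79.4 cRPKM (16171 reads) in siControl cells on vehicle and 74.2 (16301) on Dex, and 30.6 (6278) and 30.8 (8226) in siArglu1 cells. Gata3 (ENSMUSG00000015619), its relative needed for the survival of sympathetic neurons, had 3.59 cRPKM (752 reads), 2.55 (576), 7.84 (1653) and 7.46 (2045). For neither gene did the siControl and siArglu1 libraries overlap, with no share of all genes counted beside it. Gata2 fell to 39.4% (38.3 to 40.6) of its siControl level in vehicle and to 41.3% (40.2 to 42.4) in Dex, and Gata3 rose 2.23-fold (2.05 to 2.44) and 2.91-fold (2.65 to 3.19). The cRPKM of Gata2 over that of Gata3 was 22.1 (Veh) and 29.1 (Dex) in siControl, and 3.90 and 4.13 in the siArglu1 libraries. This ratio is taken within a library and does not depend on how libraries were scaled. GENCODE lists an antisense gene, Gm13256, with 155 exonic bases shared with Gata3, and Hand2os1 with 461 shared with Hand2, both on the opposite strand. Their reads were not analysed here and cannot be told apart from those of Gata3 and Hand2 in these bases. A further gene, 9230102O04Rik, shares 77 exonic bases with Gata3 on the same strand, and had 19, 18, 41 and 76 reads, more in the siArglu1 libraries. Its part in the reads of Gata3, which had 576 or more in each library, was not tested.

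Among the enzymes, Th (ENSMUSG00000000214) carries out the rate-limiting step. It had 2.58 cRPKM (303 reads) with vehicle and 4.71 (597) with Dex in siControl, and 1.05 (124) and 2.54 (391) in siArglu1. Here the groups overlapped, since siArglu1 with Dex stood at the level of siControl with vehicle. Within a treatment Th fell with knockdown, to 41.6% (33.4 to 51.4) in vehicle and to 53.6% (47.1 to 61.0) in Dex.

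Ddc (ENSMUSG00000020182), which also serves serotonin synthesis, changed least among the enzymes with more than 1 read in each library. It had 5.71 cRPKM (707 reads), 6.22 (830), 5.0 (624) and 5.11 (828) in the same order. The log2 ratio for knockdown was -0.16 (-0.32 to -0.00050) in vehicle and -0.29 (-0.43 to -0.15) in Dex, neither called. Both siArglu1 libraries lay below both siControl libraries. The counting intervals of siControl Veh (5.30 to 6.15 cRPKM) and siArglu1 Dex (4.77 to 5.47) overlapped.

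Dbh (ENSMUSG00000000889), the enzyme that separates noradrenergic from dopaminergic cells, had the largest rise of the 8. It had 3.20 cRPKM (529 reads) in siControl Veh and 3.49 (623) after Dex, but 12.5 (2088) in siArglu1 Veh and 14.2 (3069) after Dex. The siArglu1 libraries lay well above the siControl libraries, 4.01-fold (3.64 to 4.42) in vehicle and 4.03-fold (3.70 to 4.40) in Dex. Among 12497 genes this ranked 52 from the top in vehicle and 51 in Dex. The makeup of the pathway shifted within each library. Dbh over Ddc was 0.560 and 0.561 in the siControl libraries and 2.51 and 2.77 in the siArglu1 libraries, as a ratio of cRPKM. Dbh over Th was 1.24 (Veh) and 0.741 (Dex) in siControl and 11.9 and 5.58 in siArglu1. Thus Th mRNA, for the first step, and Dbh mRNA, for the third, went in opposite directions.

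**Figure D3:**
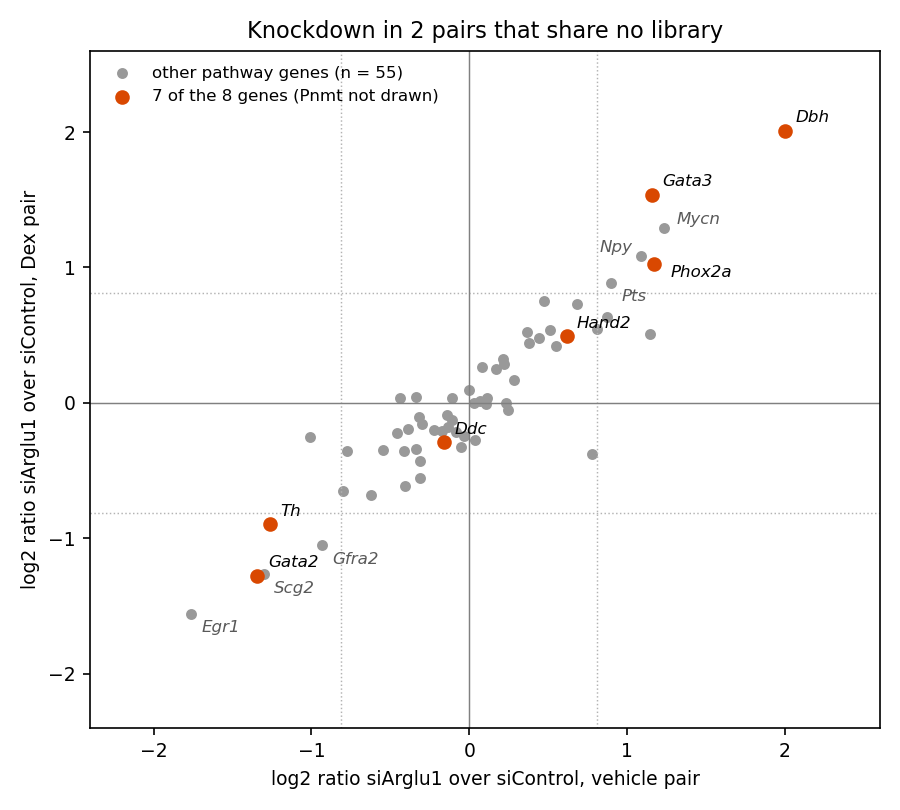
Log2 ratio of knockdown in vehicle (x axis) against that in Dex (y axis) for 7 of the 8 genes (large points) and 55 other genes of the pathway lists (grey), with dotted lines at 0.81 in either direction. Dbh, Gata3 and Phox2a lie past the lines in the upper right and Gata2 and Th in the lower left, with Mycn, Npy, Pts, Scg2, Gfra2 and Egr1 of the pathway lists.

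The second question was how Dex acted on these genes and whether its effect differed after knockdown. A gene was called where the log2 ratio of Dex over vehicle was at least 1 in size. In siControl, of all genes, 0.320% were called higher and 0.144% lower (0.464% in all). Of the 8, Pnmt was called higher, which is a description only, because it passed the minimum through its reads in that same Dex library, and none of the other 7 was called. In siArglu1 1 of the 8, Th, was called higher and none lower, against 0.328% and 0.0640% (0.392% in all). With Pnmt included, the median log2 ratio of the 8 genes was 0.11 in siControl and -0.041 in siArglu1, with medians near 0 over all genes. Pnmt had 1 read in both siArglu1 libraries, so these medians are likewise not read as a result. The siControl Veh library is the reference of both the knockdown in vehicle and the Dex ratio in siControl, so a chance high or low count there moves both.

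Pnmt (ENSMUSG00000038216) had 89 reads in siControl Dex and 1 read in each of the other libraries. These are levels of 1.13 (0.907 to 1.39) and 0.01 cRPKM, and a single read allows up to 0.0557 cRPKM. The gene was thus detected at more than 1 read in siControl Dex alone. Its ratio of Dex over vehicle in siControl was 83.1, with an interval of 14.5 to 3317 that is wide because 1 read stands on one side. Pnmt ranked first of all 12497 genes in this comparison. Between the Dex libraries, it was 109-fold lower in siArglu1 (19 to 4342), the lowest rank of all genes. Both ranks are a description only, since Pnmt entered the 12497 genes through its reads in siControl Dex, the library that sets them. In siArglu1 no ratio is given, since both libraries held 1 read. The difference of the log2 Dex ratios, siArglu1 minus siControl, was -6.79 from the raw counts, and its interval of -13.09 to 0.50 includes 0.

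None of the genes counted near Pnmt (Stard3, Tcap, Pgap3, Mien1 and Erbb2) had its reads in siControl Dex alone. Pgap3 had 355 (Veh) and 444 (Dex) reads in siControl, and 235 and 363 in siArglu1. Its log2 ratio of Dex was 0.22 in both siRNA states (0.019 to 0.43 in siControl, -0.024 to 0.46 in siArglu1). Tcap had 1, 8, 3 and 8 reads, and Erbb2 had 3, 3, 4 and 8. On these few reads the log2 ratio of Dex in siControl was 2.13 (0.0014 to 8.37) for Tcap and -0.076 for Erbb2. In siArglu1 that of Tcap was 0.83 (-1.05 to 3.55). Stard3 and Mien1 had at least 1059 reads in each library, with log2 ratios of Dex in siControl of 0.066 and 0.022. No GENCODE gene overlaps Pnmt. An alternative 3′ splice site of Pnmt (Alt3) had 13 junction reads in siControl Dex and 0 in the other libraries, so spliced Pnmt RNA was seen in the same library as its reads.

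The Dex ratio of Th was above 1-fold in both siRNA states. Its reads went from 303 to 597 in siControl cells, and in siArglu1 cells they went from 124 to 391. The fold was 1.84 (1.60 to 2.12) in siControl, under the size called, and 2.37 (1.93 to 2.93) in siArglu1, past it. These ranked 62 and 21 from the top of all genes. The difference of the log2 ratios was 0.36 (0.0051 to 0.73), siArglu1 minus siControl, with a lower bound close to 0. Th, at the start of the pathway, thus had more reads with Dex in both states, and Pnmt, at its end, in siControl alone.

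Gata3 gave the largest ratio below 0 for Dex in siControl. Its log2 ratio was -0.48 (-0.64 to -0.33), rank 181 from the bottom of all genes, and -0.10 (-0.20 to -0.0094) in siArglu1. The difference was 0.38 (0.20 to 0.56). Neither ratio was called.

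For Hand2, Phox2a, Gata2, Ddc and Dbh, the Dex ratios lay between -0.088 and 0.14 in siControl and between -0.069 and 0.14 in siArglu1 on the log2 scale. The difference between the siRNA states was -0.13 (-0.15 to -0.097) for Hand2, -0.15 (-0.22 to -0.082) for Phox2a and 0.067 (0.010 to 0.12) for Gata2. It was -0.13 (-0.34 to 0.074) for Ddc and 0.0087 (-0.18 to 0.19) for Dbh, whose intervals include 0. With libraries scaled by total reads in place of TMM these differences were -0.084 for Hand2, -0.11 for Phox2a and 0.11 for Gata2. Over the 8 genes, 5 intervals of the difference did not include 0, against 46.9% of all genes, and they hold no spread between cultures. Dbh, which was 4.01-fold higher after knockdown in vehicle, had Dex ratios in siControl and siArglu1 of 0.14 (-0.033 to 0.31) and 0.14 (0.064 to 0.23).

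**Figure D4:**
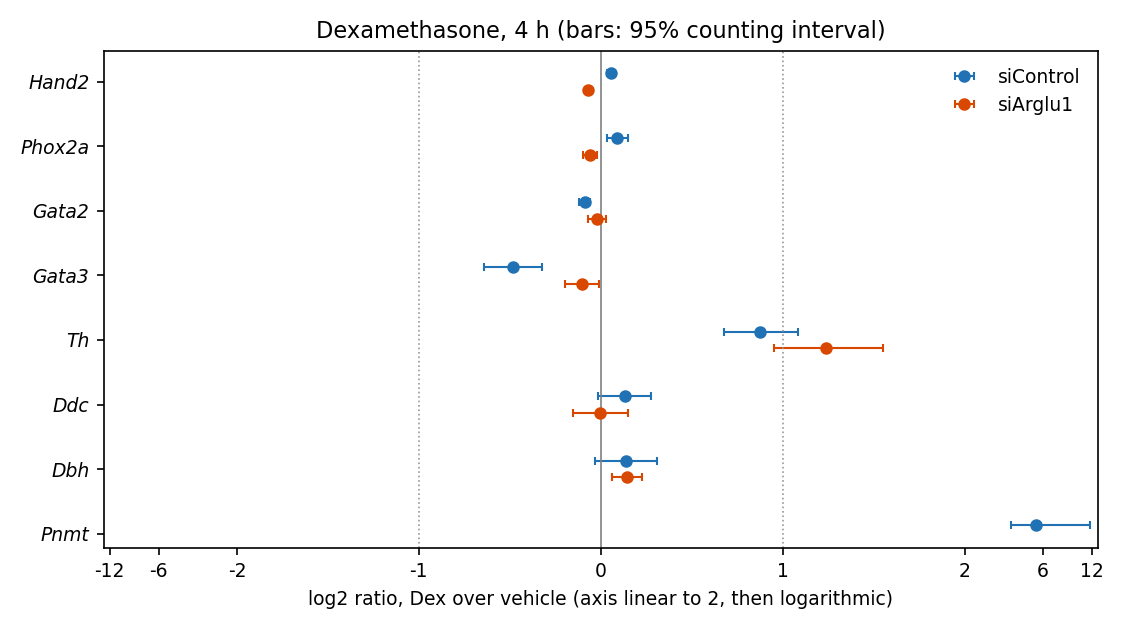
Log2 ratio of Dex over vehicle for each gene in siControl (blue) and siArglu1 (red), with 95% counting intervals. The axis is linear up to 2 and logarithmic beyond, and dotted lines mark 1 in either direction. Th lies at 0.88 and 1.24 and Pnmt at 5.45 in siControl, with no ratio drawn in siArglu1, where both libraries had 1 read, and the other genes lie within 0.48 of 0.

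A quasi-likelihood model (edgeR) with a term for knockdown and a term for Dex, additive over the 4 libraries, had 1 residual degree of freedom. The model assumes that Dex acts alike in both siRNA states. It was fitted to pooled libraries and holds no spread between cultures, so no p from it measures that spread. It gave 7 of the 8 genes, all but Ddc (adjusted p = 0.0548), an adjusted p under 0.05 for knockdown, against 61.6% of all genes, with Pnmt among the 7 through the 89 reads that let it pass the minimum. Its adjusted p for knockdown was 2.1e-80 for Dbh and 7.1e-15 for Th. For Dex it called 1.04% of all genes, with Th among them (adjusted p = 1.5e-12), and DESeq2 with the same terms gave Th an adjusted p of 0.00099. No p is given for Pnmt and Dex, since Pnmt entered the fit only through the library in which it was high and its reads do not meet the assumption of the model.

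The wider pathway was read from lists of genes by role. The shares of all genes to set beside their counts are those given above, 15.8% called for knockdown in vehicle, 12.1% in Dex and 9.89% in the same direction in both. Of 20 other noradrenergic and neural crest factors, 12 had enough reads, and 1 was called for knockdown, in both pairs, a share near that of all genes. This was Mycn, the MYC family member of neuroblastoma, with 1153 (Veh) and 1274 (Dex) reads in siControl and 2674 and 3813 in siArglu1. It rose 2.36-fold (2.20 to 2.53) in vehicle and 2.45-fold (2.30 to 2.61) in Dex. None of the 12 was called for Dex. All 7 genes for tetrahydrobiopterin, the cofactor of TH, were measured, and 1 was called. Pts, which encodes the second enzyme of that path, rose 1.86-fold (1.71 to 2.03) in vehicle and 1.85-fold (1.71 to 2.01) in Dex. Gch1, which sets the rate of cofactor synthesis, had 54.1, 56.4, 49.9 and 49.0 cRPKM. Gch1, Cyb561, Slc18a2, Slc6a2, Chga, Pcsk2, Adra2a, Chrnb4 and Nr3c1 are named for their roles or to complete a count, after their values were seen. The same holds for Tubb3 and Chgb among the markers, and for Inppl1 and 9230102O04Rik, named for their overlap with the 8 genes.

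Of 13 genes for vesicular storage, uptake and release, 10 had enough reads. In vehicle 2 were called higher and 1 lower after knockdown, and in Dex 1 higher and 1 lower, against 7.00% and 8.77% of all genes in vehicle and 6.19% and 5.93% in Dex. Scg2, which encodes a granin of dense-core vesicles, fell to 40.6% (39.6 to 41.6) in vehicle and 41.6% (40.7 to 42.5) in Dex. Npy, the peptide co-released with noradrenaline, rose 2.13-fold in each (1.74 to 2.62 and 1.78 to 2.56). Pcsk2, a prohormone convertase, was past the size called in vehicle (log2 ratio 0.87) but not in Dex (0.64). The vesicular transporter Slc18a2 had 19.4, 20.6, 20.5 and 21.2 cRPKM, and the noradrenaline transporter Slc6a2 had 1 read over all libraries. Cyb561, which supplies electrons to DBH in the vesicle, had 16.3, 16.1, 10.3 and 10.1 cRPKM, with uncalled log2 ratios for knockdown of -0.62 and -0.68. None of these genes was called for Dex. Chga, the major granin, had log2 ratios of Dex of 0.49 in siControl and 0.38 in siArglu1.

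None of the 5 measured genes of catecholamine breakdown, of 8 listed, was called in any comparison, and likewise none of 2 cholinergic genes of 4 listed. Of 15 receptors, 11 had enough reads. Gfra2, the neurturin coreceptor, fell to 52.2% (40.1 to 67.5) in vehicle and 48.0% (37.2 to 61.6) in Dex. Adra2a was called higher and Chrnb4 lower in vehicle, where their log2 ratios were 1.14 and -1.01, but not in Dex, at 0.51 and -0.25. Adra2a had few reads, 11 (Veh) and 17 (Dex) in siControl and 25 and 30 in siArglu1. Chrnb4 had 132 and 86 in siControl and 64 and 88 in siArglu1. Adra2b, an alpha-2 adrenergic receptor, rose with Dex in both siRNA states, with 142 and 313 reads in siControl and 190 and 532 in siArglu1. The folds were 2.06 (1.68 to 2.53) and 2.11 (1.78 to 2.50). Like Th, it thus had more reads with Dex in siArglu1 as well. Of the 40 genes called higher with Dex in siControl, 13 were also called in siArglu1, 34 had a ratio above 0 there, and 6 had a ratio at or below 0.

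Factors known to act on the Pnmt promoter were listed as well, and 8 of 10 had enough reads. Egr1, the immediate early zinc finger factor that activates Pnmt with GR, was called lower in both pairs, and the other 7 were called in no comparison. It had 2117 (Veh) and 2499 (Dex) reads in siControl and 613 and 1037 in siArglu1, and so fell to 29.4% (26.8 to 32.2) in vehicle and 34.0% (31.6 to 36.5) in Dex. Nr3c1, which encodes GR, had 2904, 2890, 2297 and 3285 reads. Its log2 ratio for knockdown was -0.32 (-0.40 to -0.24) in vehicle and -0.10 (-0.18 to -0.031) in Dex, neither called. Between the Dex libraries, Egr1 and Pnmt were both lower in siArglu1. In vehicle Egr1 was lower as well, while Pnmt had 1 read in both libraries. With Dex in siControl the log2 ratio of Egr1 was 0.14, while Pnmt went from 1 to 89 reads. The part of Egr1 in the level of Pnmt was not tested.

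The genes whose profile was most like each of the 8 were found by the distance between log2 CPM centred over the 4 libraries. They were sought among 10694 genes with a mean of at least 1 cRPKM. Over 4 libraries such a likeness is a description. For Phox2a these were F3 (0.018) and Gramd3 (0.025), for Hand2 Orc3 (0.0085) and Fam71e1 (0.015), and for Gata2 Dnajc10 (0.057) and Smad5 (0.061). Gata3 was nearest to Tmem151a (0.091) and Pcp2 (0.10), Dbh to Cdk10 (0.084) and Sat2 (0.11), and Ddc to D4Wsu53e (0.026) and Dnajb9 (0.027). Th was followed closely by 1 gene, Rtl1 (0.065), with Tuba8 next at 0.35. For Pnmt the nearest was Usp18 at 3.26. Pnmt lies below the mean level asked of the genes compared, so genes at its own level were left out. Whether it has a close neighbour was therefore not tested.

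The 8 genes had 9 listed events of cassette exons and alternative splice sites, which lie in Th, Ddc, Gata2, Gata3 and Pnmt. Of these, 3 had enough coverage in both libraries for knockdown in vehicle, 5 for knockdown in Dex, 5 for Dex in siControl and 4 for Dex in siArglu1. None changed by 15 or more in percent spliced in (PSI), the inclusion level from 0 to 100. The best covered was a 3 nt alternative 3′ splice site of Gata2 (mm9, chr6:88152413-88152558), with a PSI of 98.3 (Veh) and 98.7 (Dex) in siControl and 98.0 and 100 in siArglu1. It rests on 461, 458, 150 and 206 junction reads. A 225 nt cassette exon of Th (mm9, chr7:150083871-150084095) had a PSI of 94.3, 100, 100 and 94.0, with too few reads to be scored in siArglu1 Veh. For Phox2a, Hand2 and Dbh no event was listed, and that of Pnmt lacked coverage in both libraries of any pair. A change of splicing in these genes was therefore not measurable.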

How the data were processed

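N2a cells were grown as a monolayer and RNA-seq libraries were made with the TruSeq V2 kit by the authors, who sequenced them on a HiSeq2500. The submitters' processing notes name Bowtie and the build mm9, with no version, while for the annotation of genes no source used here gives a version. For each gene and library the authors deposited a raw read count and an RPKM corrected for mappability (cRPKM). A gene left without a value was taken as 0 reads. The authors deposited PSI as a percent with a coverage score in words. The 2 unnamed columns of the authors' ratio of cRPKM were not used.

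TMM factors (edgeR 4.0.16, R 4.3.3) scaled the reads, and log2 CPM used a prior count of 1. Genes entered with 75 reads or more over the 4 libraries, which left 12497. Calls were a log2 ratio of at least 0.81 for knockdown, the size the study uses, and 1 for Dex. Intervals at the 95% level are exact (Clopper-Pearson, conditional on the reads of both libraries; for differences of ratios, exact or, at high counts, normal intervals of the odds ratio). DESeq2 1.42.0 served as an alternative. Depth was 66074574 to 86541444 reads on genes per library. Events were compared where both libraries had a score of LOW or better, and called at 15 PSI. Scripts were tested on simulated data. All 8 genes are named, and of each list the genes called for knockdown in both pairs or for Dex. The genes and lists were chosen with earlier results of these data known. Some genes of these lists are counted but not reported by name here.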

Additional observations from a re-analysis of the deposited data

Results flagged for a closer look

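For 3 genes the Dex ratio had opposite signs in siControl and siArglu1, and the share of all genes where this holds was not counted. The difference of the log2 ratios, siArglu1 minus siControl, was -0.151 for Phox2a, -0.125 for Hand2 and -0.134 for Ddc, and with 1 library per group it was not tested between cultures. From the bottom of 12497 genes, these differences ranked only 2735, 3232 and 3046. The counting interval of the difference included 0 for Ddc. For Phox2a the sign in siArglu1 turned to 0.038 when the trend on transcript length was removed. The ratio of Ddc in siArglu1, -0.0027, turned to 0.030 with total reads, 0.031 with cRPKM, 0.065 with the length trend removed and 0.0029 with the GC trend removed. For Pnmt the same difference was -5.65, and the effect of knockdown differed by -5.65 for Dex minus vehicle. Both values take in a prior count of 1 and rest on 89 reads in siControl Dex and 1 read in each of the other libraries, so Pnmt has no usable ratio, and no sign, for Dex in siArglu1 or for knockdown in vehicle.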

How the results depend on the processing

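The counts of the 8 genes called depended mostly on the size asked for. With a threshold of 1.5, 1 gene was called for knockdown in vehicle in place of 5, and 3 in Dex in place of 6. For Dex in siControl, 1 gene called became 0 with a minimum of 300 reads, which leaves out Pnmt, and 2 with a threshold of 0.5. The additive edgeR model gave 2 genes for Dex, Th and Pnmt, in place of 1 in siControl and 1 in siArglu1. Of these, Pnmt is not read as a result, since it entered only through the library in which it was high. DESeq2 with the same terms gave 1 gene. The other alternatives for these counts (size factors of DESeq2, total reads, a prior count of 5, no minimum on reads, cRPKM, and trends on length or GC removed) left them within 1.5 times the main count. Of 192 recomputed log2 ratios, 174 moved by less than counting error and 18 by more, and no called ratio changed sign. Signs of uncalled ratios changed for Ddc, Gata2 and Phox2a with Dex in siArglu1 and for Pnmt with knockdown in vehicle. The log2 ratio of Pnmt for Dex in siControl ranged from 3.48 (cRPKM) to 5.48 (GC trend removed), and that for knockdown in Dex from -5.79 (length trend removed) to -3.48 (cRPKM). With a prior count of 5 these were 3.97 and -4.03. Of the differences of Dex ratios, that of Hand2 moved beyond counting error, to -0.084 with total reads, and that of Gata2 went from 0.067 to 0.11. No paired analysis was possible because each group has 1 library and thus no replicates to pair by number; the additive model compares siRNA states within a treatment but holds no replicate block. For the same reason no library was left out. Levels near 1 read are limited by depth.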
